A study of Mus musculus with 18 samples.

Results

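Apoptosis genes of the pregnant mouse uterus were examined in differential m6A peaks. The list held 44 genes of the cell death machinery, from the BCL2 family and the caspases to the death receptors and the p53 axis. A peak was counted for a gene when its annotation named that gene for the exon or intron, or when the gene was the one assigned to the peak and the peak centre lay between the gene start and end listed with that peak. By this rule 26 of the 44 genes held 56 of the 40929 peaks used.

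The uterus was collected on day 5 of pregnancy from wild-type ICR females, 8 weeks old, in 3 treatments. Veh mice received intraperitoneal saline vehicle daily on days 1 to 4, LPS mice received the same with lipopolysaccharide at 0.5 mg/kg on days 3 and 4, and Mel+LPS mice received melatonin at 10 mg/kg on days 1 to 4 with the same LPS. Each treatment had 3 input and 3 m6A-immunoprecipitated libraries, 18 in all. The RNA came from whole uterus, which holds epithelium, stroma, muscle and leukocytes. A change of cell makeup, of RNA level and of methylation cannot be told apart in these lists, and the tissue label was not checked against markers, since the lists hold no expression level.

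N6-methyladenosine (m6A) is a methyl mark that a METTL3 and METTL14 complex writes on mRNA, mostly near stop codons and in 3′UTRs, and that reader proteins use to set the decay, splicing and translation of the transcript. Apoptosis runs by 2 routes. In the mitochondrial route, BH3-only proteins block BCL2-like survival proteins or switch on BAX and BAK, cytochrome c leaves the mitochondria, and APAF1 assembles the caspase-activating apoptosome. In the death receptor route, ligands such as FASL and TRAIL recruit FADD and caspase-8 to their receptors. In the uterus around implantation, apoptosis is known from the luminal epithelium and the decidua next to the embryo.

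A peak in these lists has a position on GRCm38 (mm10), a feature class and a log likelihood ratio, a score on the log10 scale for how much better its signal fits a difference between the treatments than none. There is 1 score for each peak and comparison and none for each library, so no value below has a replicate error or a test over mice, and the read depth behind the scores is unknown. The lowest score in any list was 1.008. Peaks down in LPS vs Veh were used on chromosomes 1 to 9 only, where the list used here is complete. It covered 28 of the 44 genes, and the other 16 could not be found in it. Both comparisons used the same LPS libraries, so their values for a gene are set side by side and are not independent.

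Of the 44 genes, 14 had a peak up in LPS vs Veh (31.8%). Among all protein-coding genes, 20.1% had one. Counted only among genes with a peak in any list, the shares were 14 of 26 apoptosis genes (53.8%) and 46.7% of all genes. A peak down in LPS vs Veh was held by 6 of the 28 genes covered (21.4%), against 22.0% of the protein-coding genes on chromosomes 1 to 9, or 37.5% against 48.0% among genes with any peak. A peak up in Mel+LPS vs LPS was held by 12 genes (27.3%), against 25.6% of protein-coding genes, or 46.2% against 55.6% among genes with any peak. A peak down in Mel+LPS vs LPS was held by 8 genes (18.2%), against 15.3%, or 30.8% against 37.6%. In any list, 59.1% of the apoptosis genes and 42.3% of the protein-coding genes had a peak. The genes with a peak had a median mRNA of 2913 bases and those without had 1792.5 bases, and the part of length in these shares was not tested. On chromosomes 1 to 9, where the directions can be compared, 7 genes were listed with an up peak in LPS vs Veh and 6 with a down peak, and 1 of them, Tnfsf10, had both. In Mel+LPS vs LPS, Birc6 and Cflar were up at some positions and down at others. How many of all genes had both directions is not given here, so these overlaps only describe the apoptosis genes.

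The scores were mostly low. The median of the apoptosis gene peaks was 2.27 in the list up in LPS vs Veh, where that of all peaks was 2.88, and 1.51 in the list down in LPS vs Veh, against 2.65. In Mel+LPS vs LPS it was 1.69 against 2.17 for up peaks and 2.61 against 3.09 for down peaks. A score of at least 3 was reached by 20 of the 56 peaks (35.7%), and by 43.5% of all peaks. Some scores were shared by many peaks of a list. The value 3.78 of Bid and of 1 peak of Birc6 was that of 1450 of the 12023 peaks up in LPS vs Veh, the value 3.63 of Tnfsf10 that of 734 of the 6259 peaks down in LPS vs Veh, and the value 3.85 of Mdm4 that of 1370 of the 9211 peaks listed as down in Mel+LPS vs LPS. These 4 apoptosis peaks therefore had the commonest score of their list.

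**Figure D1:**
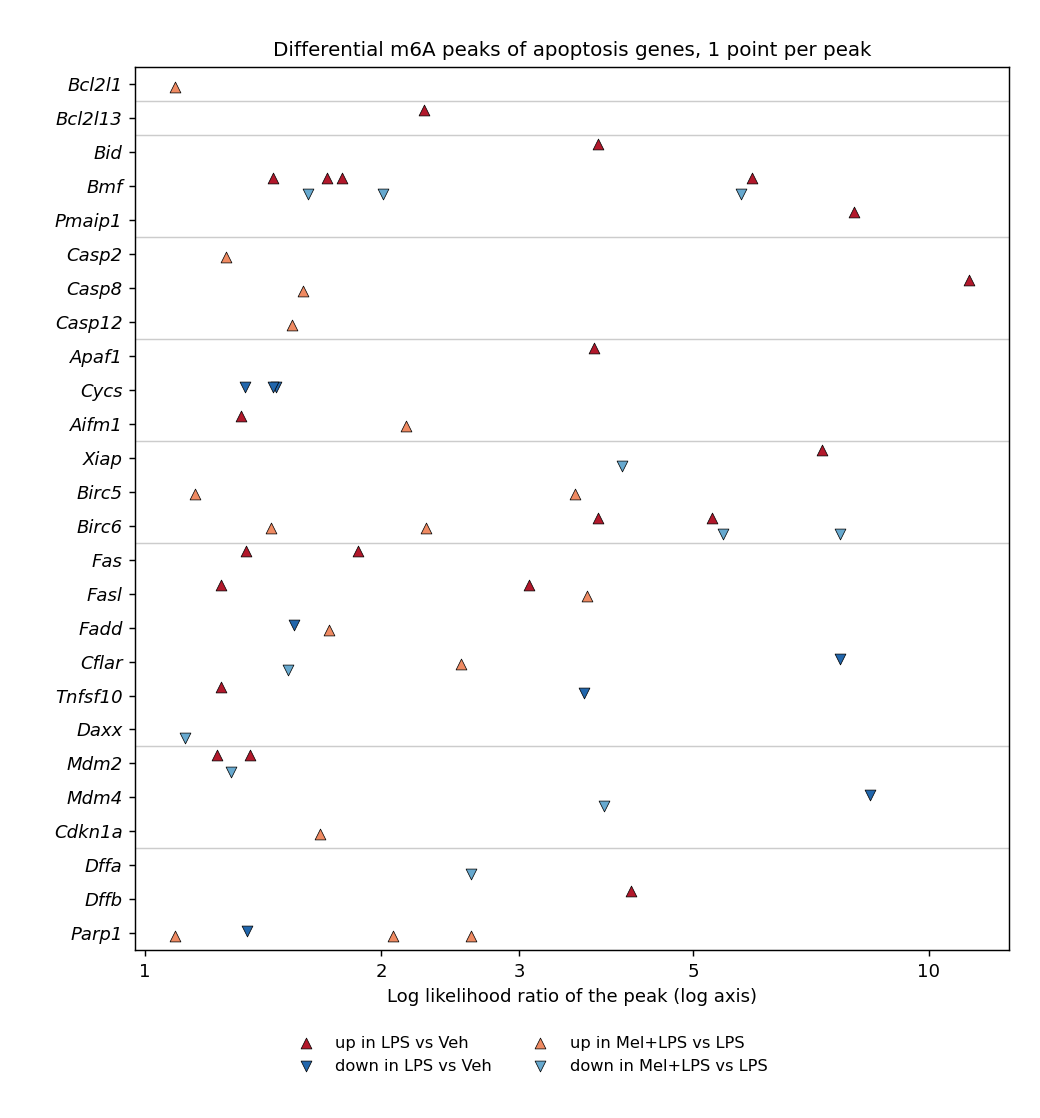
Log likelihood ratio (log axis) of each of the 56 differential m6A peaks, 1 point per peak, for the 26 apoptosis genes that held one, with grey lines between groups of genes by role. Upward triangles are up peaks and downward triangles down peaks of LPS vs Veh (dark) and Mel+LPS vs LPS (pale), and the highest point is Casp8, up in LPS vs Veh at 11.3.

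Short stretches of mRNA are shown for the genes in which peaks of both comparisons shared bases, since their values are set side by side below, and for the Parp1 peak among the highest up peaks of Mel+LPS vs LPS. Each stretch has 29 bases of a GENCODE transcript, 5′ to 3′ on the strand of the gene. The capitals mark a match to DRACH, the consensus of the m6A writer (any base but C, then A or G, then A and C, then any base but G). It is the match nearest to the peak centre among the exon bases of the peak, searched on the transcript strand. The Xiap peak up in LPS vs Veh had 39 of 201 bases on the exon, and the Parp1 peak down in LPS vs Veh 41 of 160. Their centres lay 62 and 39.5 bases past the exon end. The Birc6 peak shown had 128 of 200 bases on the exon, and the Parp1 peak at exon 4 had 60 of 110. For each of these peaks, nearer matches in intron bases could not be read. Sequences were read from spliced transcripts, so none is shown for peaks within introns, nor for the shared Mdm2 position, which lies almost wholly in one.
Xiap, coding sequence, chrX:42098845-42098873, plus strand: ataatattcattTAACCcattcacttgag
Birc6, coding sequence, chr17:74618464-74618492, plus strand: tctgcatactcaGAACTtaaatagatcct
Bmf, 3′UTR, chr2:118531222-118531250, minus strand: gaacaagcccagTGACTccccattctgca
Bmf, 3′UTR, chr2:118532022-118532050, minus strand: tcagggagggtcGGACTtctccaagaacc
Fasl, 3′UTR, chr1:161781461-161781489, minus strand: tgagattaattaAGACTacatgagccaca
Fadd, coding sequence, chr7:144580609-144580637, minus strand: gaatctggtggcTGACCtggtggaagaag
Parp1, coding sequence, chr1:180597358-180597386, plus strand: gcacaacgcctaTGACCtggaagtgatcg
Parp1, coding sequence of exon 4, chr1:180579309-180579337, plus strand: cctctctgcagaAGACAaagaagctctga
The Fasl stretch and the Bmf stretch at 118532022 to 118532050 lie in a Mel+LPS vs LPS peak outside the bases shared with LPS vs Veh. That Bmf stretch and no other of these 8 holds GGAC, the form of the motif with the strongest known preference. A match is common: DRACH was in 97.7% of all 15387 peaks on exons and GGAC in 60.6% of them.

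Among the BCL2-like survival proteins, which hold BAX and BAK in check, Bcl2l1 (BCL-XL) was the only one of 4 genes with a peak by the rule. It was up in Mel+LPS vs LPS, in an exon of the coding sequence on chromosome 2 (152829543 to 152829763), and scored 1.09. A peak down in LPS vs Veh shared 120 bases with it (152829538 to 152829662, 1.497), but its centre lay 1111 bases beyond the gene limits listed with it and so outside the rule, although it lies wholly on the coding sequence in GENCODE. Bcl2, the founding survival gene of the family, was assigned 1 peak, which lay on an exon of Kdsr. Its own long 3′UTR held 3 peaks that were assigned to a neighboring microRNA gene. At 106541692 to 106541980 on chromosome 1 it was up in LPS vs Veh with 1.81, and at 106541692 to 106541959 down in Mel+LPS vs LPS with 1.62. A further peak, up in LPS vs Veh, lay at 106540110 to 106540236 with 2.49. All of these Bcl2 scores were below the medians of their lists. Bcl2l2 and Mcl1 had no peak.

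Bax, Bak1 and Bok, the proteins that open the outer mitochondrial membrane, had no peak on their own transcripts. The 4 peaks assigned to Bax, 1 in each list, lay 4325 to 6550.5 bases from the gene limits listed with them, at the neighboring gene Dhdh. Bcl2l13, a BCL2 relative on the mitochondrial surface, had a peak up in LPS vs Veh at exon 6 of 7 (chromosome 6, 120876316 to 120876501, 2.27), and its 3′UTR held a peak up in Mel+LPS vs LPS at another position (120888717 to 120888940, 2.37), outside the rule.

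The BH3-only genes, which encode the sensors that start the mitochondrial route, had peaks in 3 of 8 members, each up in LPS vs Veh. Of all protein-coding genes, 20.1% had a peak up in LPS vs Veh. Bmf, a sensor of detachment and stress, had the most peaks of any of the 44 genes, 7 in all. In LPS vs Veh its 4 up peaks had scores of 5.95 in the intron (chromosome 2, 118538810 to 118539008) and 1.71, 1.78 and 1.46 in the 3′UTR (118531133 to 118531369, 118531836 to 118531993 and 118532151 to 118532325). In Mel+LPS vs LPS its 3 down peaks had scores of 5.77 at exactly the same intron position and 1.61 and 2.01 in the 3′UTR (118531141 to 118531331 and 118531818 to 118532250). Bmf was thus listed only as up in LPS vs Veh and only as down in Mel+LPS vs LPS, with each Mel+LPS peak over an LPS peak. The centres of its 3′UTR peaks lay 320 to 1322 bases past the stop codon.

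Pmaip1, which encodes the BH3-only protein NOXA, had 1 peak, up in LPS vs Veh at exon 2 of 3 (chromosome 18, 66460945 to 66461050). Its score of 8.03 was the second highest of the apoptosis genes in that list, at rank 805 of 12023 peaks. Bid, which caspase-8 cuts to link both routes, had a peak up in LPS vs Veh in intron 3 of 5 (chromosome 6, 120899965 to 120900079, 3.78). Its 3′UTR held 4 more peaks that were assigned to a neighboring gene. A peak of 573 bases was down in LPS vs Veh (120893222 to 120893794, 1.65), and 2 peaks over it were up in Mel+LPS vs LPS (120893224 to 120893392, 1.68, and 120893704 to 120894038, 2.03). The fourth, nearer to the stop codon, was down in Mel+LPS vs LPS (120894096 to 120894248, 1.099). Bcl2l11, which encodes BIM, had no peak by the rule, and 1 peak in its 3′UTR was up in LPS vs Veh (chromosome 2, 128158325 to 128158516, 1.43). Bad, Bik, Hrk and Bbc3 had none.

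Caspases are the proteases of the pathway, and 3 of 5 had a peak, while 42.3% of protein-coding genes had one in any list. Casp8, the initiator at the death receptors, had the highest score of all 56 peaks, 11.3, up in LPS vs Veh in intron 4 of 9 (chromosome 1, 58827833 to 58827998), at rank 307 of 12023. In Mel+LPS vs LPS its peak was also up, at exon 5 of 10 (58828941 to 58829088), with 1.59. The Casp8 peaks did not overlap. Casp2, another initiator, and Casp12, a caspase of the endoplasmic reticulum, were each up in Mel+LPS vs LPS at an exon, with 1.27 (chromosome 6, 42276772 to 42276895) and 1.54 (chromosome 9, 5350458 to 5350657). Casp6 and Casp9, the caspase of the apoptosome, had no peak in any list.

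Of the apoptosome and mitochondrial genes, 3 of 6 had a peak, while 42.3% of protein-coding genes had one in any list. Cycs, which encodes cytochrome c, had 3 peaks down in LPS vs Veh and none in another list. They lay in the 3′UTR, at exon 2 of 3 and in intron 1 of 2 (chromosome 6, 50564428 to 50564528, 50565362 to 50565597 and 50566245 to 50566382), with scores of 1.34, 1.47 and 1.45, all below the median of the list. Apaf1, the scaffold of the apoptosome, was up in LPS vs Veh at exon 17 of 27 (chromosome 10, 91031402 to 91031552, 3.74), where 4 bases of the peak lay on the exon. Aifm1, apoptosis-inducing factor, was up in LPS vs Veh at exon 5 of 16 (chromosome X, 48496970 to 48497110, 1.33) and up in Mel+LPS vs LPS at exon 15 of 16 (48475462 to 48475575, 2.15). Diablo, Htra2 and Endog had none.

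The inhibitors of apoptosis all had peaks, 10 in 3 genes, while 42.3% of protein-coding genes had a peak in any list. None of the 3 inhibitor genes lies on chromosomes 1 to 9, so a peak down in LPS vs Veh could not be found for them. Xiap, which binds and blocks caspases, was up in LPS vs Veh at exon 6 of 9 (chromosome X, 42098844 to 42099044) with a score of 7.31, the third highest of the apoptosis genes in that list. Of the 201 bases of this peak, only 39 lay on the exon, and the centre lay 62 bases past the exon end. In Mel+LPS vs LPS Xiap was down over 199 of the same bases (42098846 to 42099044) with 4.06, of which 37 lay on the exon. Another peak up in LPS vs Veh lay in its 3′UTR (42107860 to 42108200, 3.26), outside the rule. Birc6, a very large ubiquitin ligase that holds back caspases, had 6 peaks. At exon 32 of 54 on chromosome 17 (74618436 to 74618635), it scored 5.29 as an up peak of LPS vs Veh and 5.46 as a down peak of Mel+LPS vs LPS, over the same 200 bases. It was also up in LPS vs Veh at exon 9 of 54 (74579281 to 74579444, 3.78), down in Mel+LPS vs LPS in intron 66 of 66 of the transcript listed (74686319 to 74686448, 7.70, the highest score of the apoptosis genes in that list), and up in Mel+LPS vs LPS at exons 52 of 54 and 71 of 73 of different transcripts (74647807 to 74647948, 2.28, and 74696319 to 74696421, 1.45). Birc5, survivin, was up in Mel+LPS vs LPS only, in intron 1 of 2 (chromosome 11, 117849466 to 117849590, 3.53), at exon 2 of 3 (117849862 to 117850044, 1.16) and, outside the rule, in the 3′UTR (117855351 to 117855676, 3.27).

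Of the death receptor genes, 6 of 7 had a peak, while 42.3% of protein-coding genes had one in any list. Fasl, the ligand of FAS, had 2 peaks up in LPS vs Veh in the class 3′UTR (chromosome 1, 161781205 to 161781392, 1.25, and 161781588 to 161781788, 3.093). Its peak up in Mel+LPS vs LPS lay between them, shared 35 bases with the lower one and had the highest score of the apoptosis genes in that list (161781358 to 161781575, 3.67). Fasl was thus up in both comparisons. Its receptor Fas was up in LPS vs Veh, at exon 5 of 11 (chromosome 19, 34315284 to 34315421, 1.35) and in the 3′UTR (34327413 to 34327574, 1.87). Fas had no peak in Mel+LPS vs LPS, and on chromosome 19 a peak down in LPS vs Veh could not be found. Fadd, the adaptor between receptor and caspase-8, was down in LPS vs Veh (chromosome 7, 144580478 to 144580770, 1.55) and up in Mel+LPS vs LPS (144580474 to 144580747, 1.72), over 270 shared bases at the end of its coding sequence.

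Cflar, which encodes FLIP, the inhibitor of caspase-8, had peaks at 3 separate positions of chromosome 1. It was down in LPS vs Veh in intron 7 of 10 (58739143 to 58739345) with a score of 7.70, up in Mel+LPS vs LPS in the class 5′UTR (58731227 to 58731446, 2.53) and, in the same comparison, down in intron 2 of 10 (58718405 to 58718528, 1.52). Tnfsf10, the ligand TRAIL, was up in LPS vs Veh in the 3′UTR (chromosome 3, 27335621 to 27335870, 1.25) and down in intron 1 of 4 (27318922 to 27319079, 3.63). Daxx, a FAS-binding nuclear protein, was down in Mel+LPS vs LPS at exon 3 of 8 (chromosome 17, 33911547 to 33911679) with 1.12. The TRAIL receptor gene Tnfrsf10b had no peak.

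In the p53 axis, Mdm4, which holds p53 inactive, had the highest score of the apoptosis genes down in LPS vs Veh, 8.42, in intron 5 of 10 (chromosome 1, 133008183 to 133008293), a value that 19 peaks of that list shared. It was also down in Mel+LPS vs LPS in intron 2 of 10 (133018634 to 133018773, 3.85). Mdm2, the ligase that marks p53 for decay, was up in LPS vs Veh around its stop codon (chromosome 10, 117690035 to 117690385, 1.36). A further Mdm2 peak was up in LPS vs Veh in intron 10 of 10 (117690998 to 117691119, 1.24), and in Mel+LPS vs LPS it was listed as down from the same first base (117690998 to 117691147, 1.29). The latter was classed as exon 10 of 11, since its extra bases put 3 bases on that exon. Cdkn1a, the cell cycle inhibitor p21 and a target of p53, was up in Mel+LPS vs LPS in the 5′UTR (chromosome 17, 29093809 to 29093992, 1.67). Trp53 itself had no peak by the rule. A peak down in Mel+LPS vs LPS was centred 4.5 bases beyond the end of the gene given in the list, at the end of its 3′UTR in GENCODE (chromosome 11, 69591791 to 69591956, 1.36).

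All 3 genes of DNA fragmentation and PARP1 had a peak, while 42.3% of protein-coding genes had one in any list. Parp1, a DNA damage sensor cut during apoptosis, was down in LPS vs Veh at exon 18 of 23 (chromosome 1, 180597348 to 180597507, 1.35) and up in Mel+LPS vs LPS over the same 160 bases (180597344 to 180597507, 2.070). It was also up in Mel+LPS vs LPS at exon 4 of 23 (180579309 to 180579418, 2.60) and exon 13 of 23 (180589512 to 180589624, 1.091). Dffb, the nuclease that cuts DNA between nucleosomes, was up in LPS vs Veh in intron 4 of 8 (chromosome 4, 153972132 to 153972385, 4.17). Dffa, its inhibitor, was down in Mel+LPS vs LPS at exon 4 of 5 (chromosome 4, 149117461 to 149117660, 2.61).

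The peaks of Bmf, Xiap, Birc6, Fasl, Fadd, Mdm2 and Parp1 that shared at least 1 base between the comparisons are plotted side by side. How often peaks of other genes share bases in this way was not counted here. A position high or low in the LPS libraries alone enters both comparisons, in opposite directions. For that reason these pairs describe the lists and are no measure of reversal by melatonin. Mel+LPS was not compared with Veh here.

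**Figure D2:**
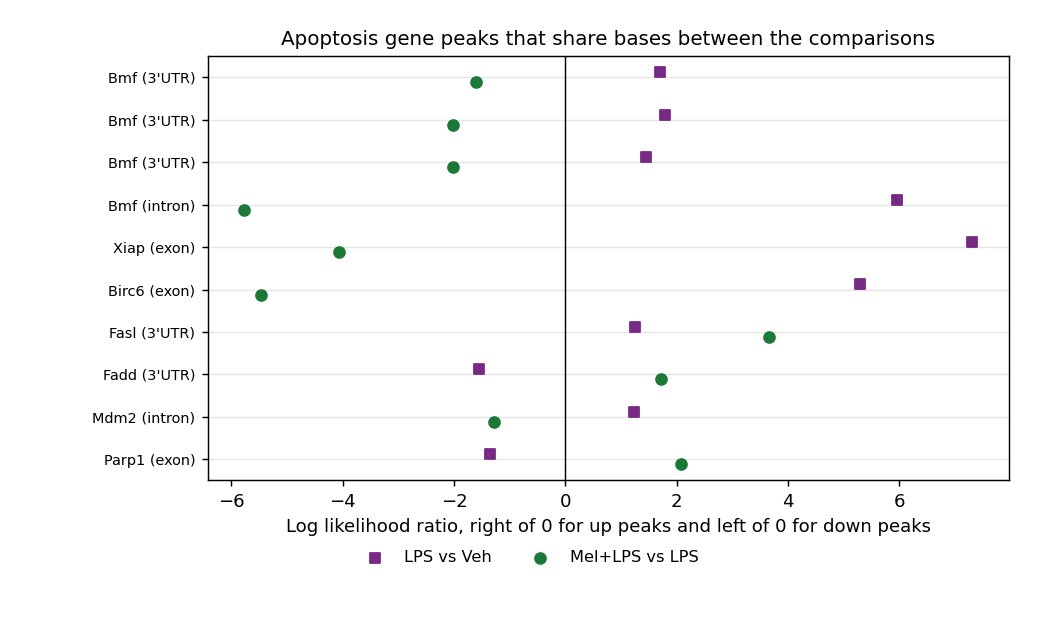
Log likelihood ratios of the apoptosis gene peaks that share at least 1 base between the comparisons, drawn right of 0 for up and left of 0 for down peaks, with squares for LPS vs Veh and circles for Mel+LPS vs LPS, which use the same LPS libraries. Bmf has 4 pairs, and the intron pair of Bmf (5.95 and 5.77) and the exon-class pairs of Xiap (7.31 and 4.06) and Birc6 (5.29 and 5.46) lie farthest from 0.

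By feature class, 26 of the 56 peaks were in exons, 14 in introns, 14 in 3′UTRs and 2 in 5′UTRs. In LPS vs Veh, 34.5% of the 29 peaks were in the 3′UTR (95% Wilson interval 19.9% to 52.7%, for counting error only), against 13.2% of all peaks counted within genes by the same rule. Of the 27 peaks in Mel+LPS vs LPS, 14.8% were in the 3′UTR (5.92% to 32.5%), against 12.5% for all genes. The LPS vs Veh share rests on a few genes, since Bmf and Fasl hold 5 of the 10 peaks, and with the highest peak per gene and list it was 25.0%. It also rests on low scores. Among peaks with a score of at least 3 it was 7.69% in LPS vs Veh, and over all lists 2 of 20 such apoptosis gene peaks were in the 3′UTR (10%, all genes 8.66%). The only such LPS vs Veh peak of the class 3′UTR was that of Fasl (3.093), which lay on the coding sequence in GENCODE. The Fadd peak of this class was also centred on the coding sequence there, and that of Mdm2 on the last base of the stop codon. The classes also differed by score. Among peaks with a score of at least 3, 11 of 20 were in introns (55.0%, all genes 39.1%), and among those below 3, 3 of 36 (8.33%, all genes 14.0%). Casp8, Mdm4, Cflar and Birc6 thus had their highest scores in introns, outside the mature mRNA, where the transcript and its motif could not be read.

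**Figure D3:**
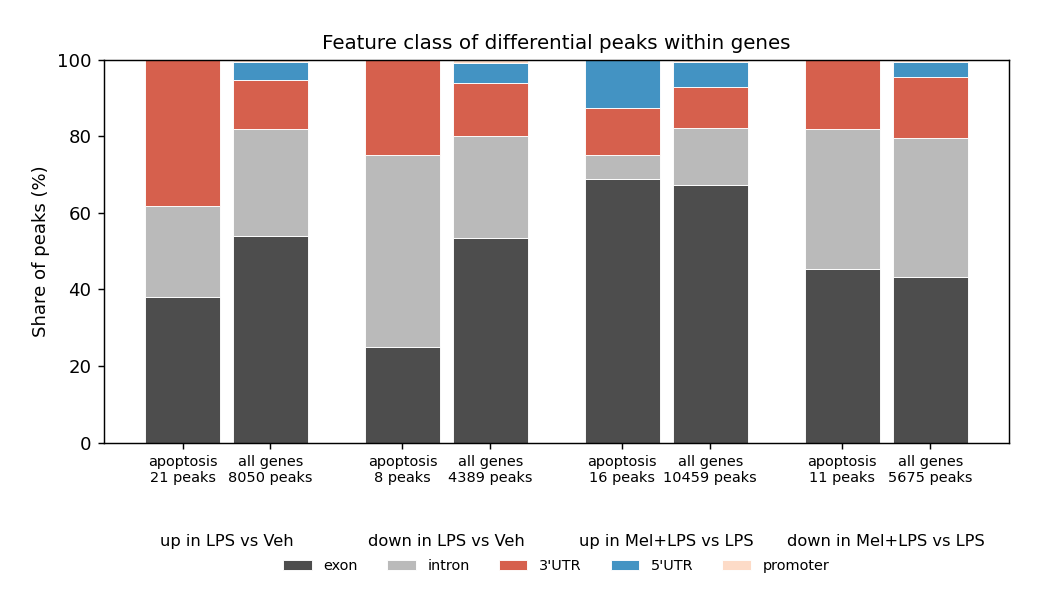
Share of differential peaks (%) in each feature class, for the apoptosis genes and for all genes counted by the same rule, in each of the 4 lists, with the number of peaks under each bar. 3′UTR peaks are 38.1% of the 21 apoptosis peaks up in LPS vs Veh, where all genes have 12.8%, and 12.5% of the 16 up in Mel+LPS vs LPS, where all genes have 10.6%.

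The exon peaks were often off the exon that names them. Of 26, 16 had their centre past the 3′ end of the exon, by 3.5 to 90 bases (median 50.5), and 0 before its 5′ end. The Birc5 peak at exon 2 of 3 and the Apaf1 peak touched their exons with 2 and 4 bases. Over all exon peaks, 47.4% had their centre past the 3′ end and 1.69% before the 5′ end. The cause was not tested.

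On the exons of GENCODE transcripts lay the centres of 25 apoptosis gene peaks, of which 10 were in the 3′UTR (40.0%, all exon peaks 45.2%), 14 in the coding sequence and 1 in the 5′UTR. Within 200 bases of the stop codon lay 8 of the 25 (32.0%), those of Fasl, Fadd, Tnfsf10, Fas, Mdm2 and Pmaip1, against 22.5% of all 15387 exon peaks. Fadd enters here with the same site in both comparisons. All exon peaks were counted on an exon of any coding gene, without the rule. The 25 had to pass the rule, so the sets are not alike. The 13 peaks on member exons outside the rule were in the 3′UTR in 12 cases, since the class 3′UTR names no gene and such a peak is counted only if its assigned gene is the right one. Of these 13, 2 lay within 200 bases of the stop codon (15.4%). The rule thus lowers the 3′UTR share of the apoptosis gene peaks and raises their share near the stop codon. DRACH was found 25.9 times per 1000 exon bases in the apoptosis gene peaks (Wilson interval 21.7 to 30.9, for counting error only) and 25.2 times in all exon peaks. Bases shared by peaks of both comparisons, as in Bmf, Birc6 and Fadd, were counted in each peak, and the interval takes no account of this. All 25 apoptosis gene peaks held at least 1 DRACH and 14 held GGAC (56.0%).

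**Figure D4:**
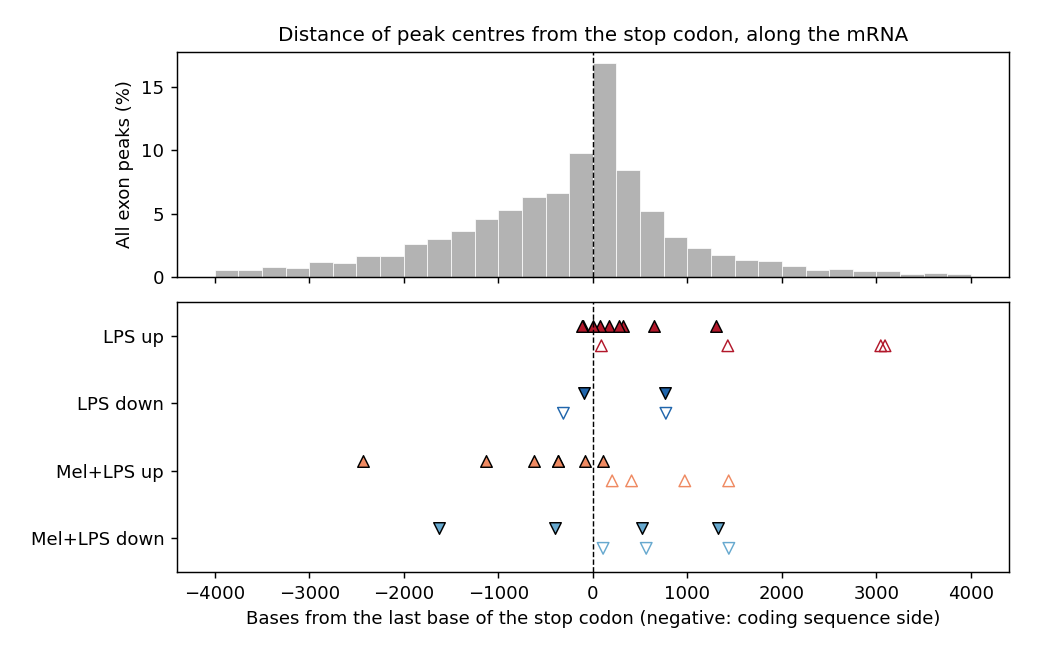
Distance of peak centres from the stop codon in bases along the mRNA, as a histogram of all 15387 exon peaks (upper panel, % per bin of 250 bases) and as 1 triangle per apoptosis gene peak in each list (lower panel), filled for peaks by the rule and open for exon peaks outside it. The 3 filled peaks of Birc6 in exons 9 and 32 lie farther than 4000 bases before the stop codon and are not drawn.

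A further 71 protein-coding genes of apoptosis and related death pathways were counted in the same way. Of these, 21 had a peak up in LPS vs Veh (29.6%, all protein-coding genes 20.1%). Of the 40 on chromosomes 1 to 9, 7 had one down (17.5%, protein-coding genes there 22.0%). In Mel+LPS vs LPS 27 had an up peak (38.0%, all protein-coding genes 25.6%) and 10 had a peak listed as down (14.1%, against 15.3%). The high scores up in LPS vs Veh included those of Casp4, an inflammatory caspase that senses LPS (12.2, intron 7 of 8), and Mlkl, the membrane-breaking protein of necroptosis (9.96, exon 8 of 11). Those down in Mel+LPS vs LPS included Bcap31 (6.29, intron 4 of 7) and Stk4 (5.49, exon 6 of 9). Mlkl had the highest up peak in Mel+LPS vs LPS (12.9, exon 3 of 11), before Map3k5 (8.70) and Trp63 (6.22). Down in LPS vs Veh were Birc3 (5.28), Mlkl in intron 4 of 10 (3.94) and Bnip3 (3.17).

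No peak by the rule or on an exon was found for 15 of the 44 genes: Bcl2l2, Mcl1, Bax, Bak1, Bok, Bad, Bik, Hrk, Bbc3, Casp6, Casp9, Diablo, Htra2, Endog and Tnfrsf10b. Such a gene can be unmethylated, methylated alike in all treatments or too weakly expressed to call, and the lists do not separate these cases. For Bcl2l2, Bak1, Bad, Bik and Tnfrsf10b, which lie on other chromosomes than 1 to 9, a peak down in LPS vs Veh could also not be found.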

How the data were processed

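m6A-seq was run on uterine RNA of 3 treatments, with 3 input and 3 immunoprecipitated libraries each. The submitters' processing notes name STAR 2.5.2a, MACS2 3.4, ChIPseeker 1.22.1, HOMER 4.10 and the build mm10. How replicates were combined is not given in the sources used here. The authors deposited 4 lists of differential peaks, whose measured value is a score, the log likelihood ratio of the peak, with its annotated class and assigned gene. It cannot be converted to a fold change or a methylation level. The depth of the libraries is not given in the files used here.

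The apoptosis genes, the further death pathway genes and the rules were chosen with earlier results of these data known. Every gene of the list is accounted for. Full positions were required for genes measured by qPCR in the study (Bcl2, Bax and Casp9), the 3 genes with the highest scores per list, genes with positions shared by both comparisons and the 3 genes with most peaks, and are given for the other peaks as well. Sequences are shown for exon peaks of the highest scores and shared positions, outside chromosome 18. Of the 41084 complete peaks, 40929 were used. The 155 left out lie on chromosome 10 of the list down in LPS vs Veh, and none belongs to an apoptosis gene.

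Peaks were placed on spliced transcripts of GENCODE release 21 (GRCm38), and gene counts used RefSeq protein-coding genes. Python 3.11.15, numpy 2.4.6, pandas 2.3.3 and scipy 1.17.1 were used. The assignment rule was run on simulated peaks for which the named gene and the place within the gene were given in advance. Whether the annotation of a peak names or assigns the right gene was therefore not tested. Of the further death pathway genes, 1 is counted but its values are not reported here. No test between treatments was made, since there is no value per replicate.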

Additional observations from a re-analysis of the deposited data

How the results depend on the processing

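No paired analysis was possible because the lists hold 1 score per peak and comparison and none per replicate, and leaving out a replicate could not be run for the same reason. With scores under 3 left out, 9 apoptosis genes were listed as up and 3 as down for LPS vs Veh, 2 as up and 4 as down for Mel+LPS vs LPS, and the share of 3′UTR peaks in LPS vs Veh was 7.69%. Without intron peaks, 3 genes were down in LPS vs Veh. With the assigned gene alone, 13 genes were down in Mel+LPS vs LPS, since peaks on neighboring genes then enter. An alternative chosen after seeing the data, the region of the peak centre on GENCODE exons with the exon peaks outside the rule included, gave 3′UTR shares of 63.2% in LPS vs Veh and 52.6% in Mel+LPS vs LPS; by construction it holds no intron peak. GGAC alone was found 4.76 times per 1000 bases. The background shares moved from those among genes with any peak to 20.1%, 22.0%, 25.6% and 15.3% among protein-coding genes, whose number is larger. For the cut on the score, the cause was not tested. The other 20 values under an alternative stayed within 1.5 times the reported count, or within the interval of the reported share. Depth, and with it the power to find a peak in a weakly expressed gene, is unknown.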

Other observations

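Some peaks were assigned to an apoptosis gene but centred outside the gene limits listed with the peak, 27 in 12 genes, and most lay at a neighboring gene. All 6 peaks assigned to Hrk, a BH3-only gene, lay at Rnft2, 4 up in LPS vs Veh with scores of 1.93, 3.16, 6.62 and 1.71, and 2 that were listed as down in Mel+LPS vs LPS scored 1.51 and 2.20. The 5 assigned to Casp12 lay at Casp4, with 12.2, 5.33 and 1.70 up in LPS vs Veh and 1.90 and 2.65 down in Mel+LPS vs LPS. A peak classed as promoter of Casp8 was down in LPS vs Veh with 5.95, and one of Mdm2 was up in LPS vs Veh with 6.19, and both lie within the longer span of these genes in GENCODE. An intergenic peak, 3774 bases from the limits listed for Bbc3, the gene of the BH3-only protein PUMA, was up in LPS vs Veh with 7.67. At Dhdh, the 4 peaks assigned to Bax had scores of 1.94 (up) and 1.17 (a down peak) for LPS vs Veh, with 1.71 (up) and 7.57 (a down peak) for Mel+LPS vs LPS.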
